A study of Mus musculus with 24 samples.

Results

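The genes described here are those that encode the proteins of the cytosolic ribosome, measured in the mouse hippocampus. They were chosen by symbol alone. Taken was every probe whose accession maps to a gene named Rpl, Rplp or Rps with a number, then at most 1 letter and 1 digit, or to Rpsa. Pseudogene names, S6 kinases and Rpl36al, which has more letters after its number, were left out by this rule. Each gene was read by its brightest probe. The rule found 84 of the 23787 genes that a probe names, on 151 of the 56605 probes, of which 52 belong to the large subunit and 32 to the small subunit. The arrays measured 48 male Swiss-Webster mice, 12 weeks old and housed singly, which the study selected for RNA quality from a larger number. They were hybridised in pairs on 24 arrays, 1 control and 1 treated mouse on each, with no pooling. The treated mice drank corticosterone, the main glucocorticoid of rodents, at 100 µg/ml in water with 0.45% hydroxypropyl-β-cyclodextrin through a dark phase of 12 h, and the control mice, assigned from siblings, drank the cyclodextrin vehicle. Both were killed in hour 1, 5 or 9 of the light phase that followed, and 8 mice of each kind at each hour were put on arrays. Control RNA carried the dye Cy3 and treated RNA the dye Cy5 on every array, so a constant dye difference of a probe and the effect of corticosterone cannot be told apart in any ratio at 1 hour. A change between hours within 1 dye, or a change of the ratio between hours, is free of that constant difference. In whole tissue, fewer cells of a type and less RNA per cell cannot be told apart either.

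Ribosomal proteins assemble with ribosomal RNA in the nucleolus into the small subunit, which reads the mRNA, and the large subunit, which joins amino acids. Their mRNAs are among the most abundant in any cell, and most begin with a C followed by a run of pyrimidines, the terminal oligopyrimidine (TOP) tract. Through this tract the kinase mTOR sets how many of these mRNAs are on ribosomes, which an mRNA level does not show. Several of the genes, such as Rplp0, Rpl13a and Rps18, are common reference genes in PCR.

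The sequence around the annotated start was read for 64 of the 84 genes, which the RefSeq promoter table (GRCm38.p6, 250 bases before and 50 from the start) held. A run of at least 5 pyrimidines that begins with C and touches the span from 3 bases before to 5 bases after the start, and may reach beyond it on either side, was present in 34 of their 76 promoters (44.7%), and in 20.9% of all 32851 promoters. The letters CGGAAG, on either strand, were present in 45 of the 76 (59.2%) and in 16.9% of all promoters of the same length. Some genes have several promoters. By gene, 32 of the 64 had the run and 42 had these letters, and no share by gene is given for all promoters. The motif CGGAAG and the run were searched separately and can overlap. The 8 windows shown here, each 15 bases before and 15 from the start, have the run in capitals. A run of C and T that ends farther before the start, as in Rpl13 and Rpl4, was not marked. How exact the annotated starts are was not tested. The windows belong to genes described later with a ratio of corticosterone over control below 0 (Rps21 to Rps27l) or above 0 (Rps25 to Rps6). For Rplp2 the sign depended on how arrays were scaled to each other, and it was above 0 in the first hour where ratios were not scaled between arrays.
Rps21: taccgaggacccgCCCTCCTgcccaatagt
Rpl13: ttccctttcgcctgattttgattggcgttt
Rplp2: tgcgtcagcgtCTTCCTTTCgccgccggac
Rps27l: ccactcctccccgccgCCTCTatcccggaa
Rps25: tttttccgacatcttagcgaggctgctgtg
Rps15: cccggcagagctcgcgataactgcgcaagc
Rpl4: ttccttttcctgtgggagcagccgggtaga
Rps6: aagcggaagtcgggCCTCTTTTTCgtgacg
The windows lie at chr2:180257364-180257393 (Rps21), chr8:123102335-123102364 (Rpl13), chr7:141447636-141447665 (Rplp2), chr9:66946071-66946100 (Rps27l), chr9:44407699-44407728 (Rps25), chr10:80292416-80292445 (Rps15), chr9:64173372-64173401 (Rpl4) and chr4:86857353-86857382 (Rps6, minus strand). The others are on the plus strand, and Rps21 and Rps27l have another annotated start that is not shown.

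Levels are given as normalized intensities, the brightness of a probe after background correction, and differences as log2 fold changes or log2 ratios. A gene passed the test where limma's fit of both dyes gave an adjusted p under 0.05 over all probes. The share of spots well above background ran from 57.9% to 64.2% in Cy3 and from 61.0% to 70.4% in Cy5, and no spot was saturated. Of 12 markers of hippocampal neurons, 11 had a mean intensity of at least 50, among them Neurod6 at 7945 and Wfs1 at 7770, while Iyd was not well above background in any Cy3 channel. Of the 84 ribosomal protein genes, 81 had a mean intensity of at least 50, and the lower quartile of the 84 probes was 20169. On 1 array, the seventh replicate of the fifth hour, the ribosomal protein genes stood apart in both mice. Its root mean square distance from the mean array was 0.21 on the log2 scale over these 81 genes, against 0.04 to 0.10 on the other 23 arrays. There, 16 of the genes in the control mouse and 14 in the corticosterone mouse were farther from the others than an outlier test allows. On the eighth array of the first hour this held for 9 genes in the corticosterone mouse. The counts of genes past the test at single hours and between hours were therefore also made without these 2 arrays. The distance and the outlier counts cover the ribosomal protein genes only. Whether other probes on the 2 arrays stood apart as well was not tested.

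**Figure D1:**
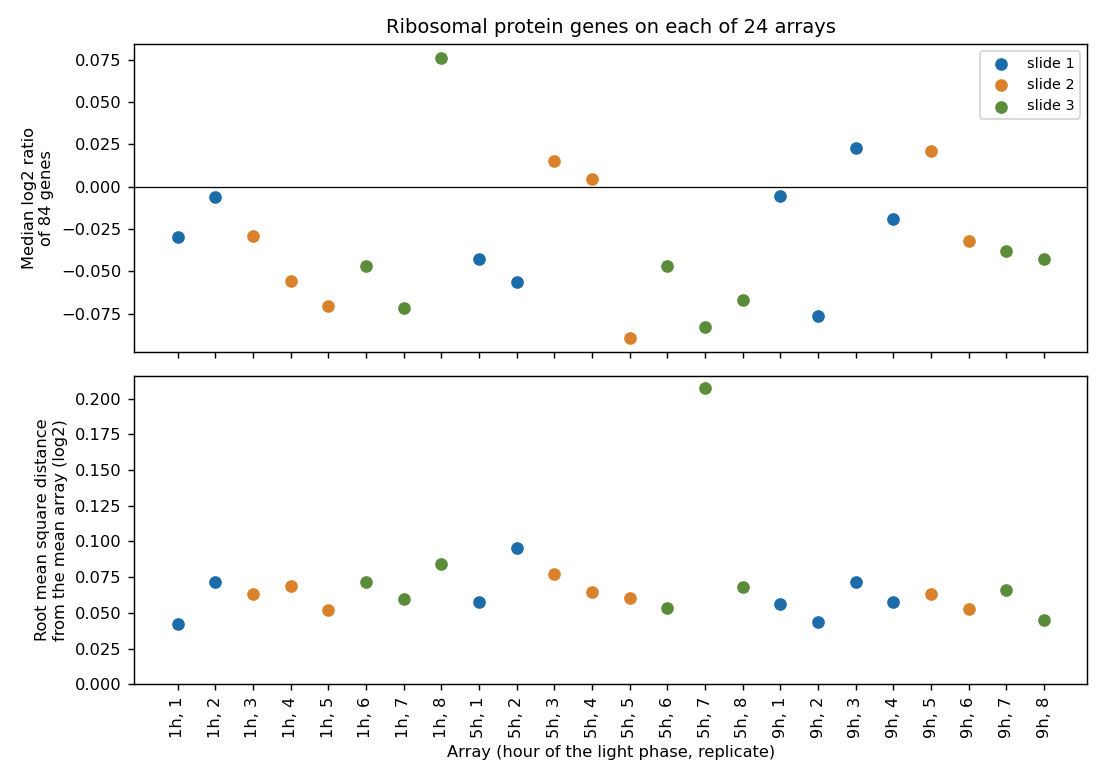
Each point is 1 of 24 arrays, ordered by hour of the light phase and coloured by slide. The upper panel gives the median log2 ratio of the 84 genes (corticosterone over control), between -0.09 and 0.08, and the lower panel the root mean square distance of 81 genes from their mean over arrays, where the seventh array of the fifth hour lies at 0.21.

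The first question was whether ribosomal protein mRNAs change through the resting phase in mice that drank vehicle. No gene of the 84 passed the test between any of the hours in control mice. Between hour 1 and hour 9 the median of the 84 log2 fold changes was 0.0050 (0.0018, -0.0060 and 0.036 within slides 1, 2 and 3), and 0.537% of all probes passed the test. The median of the per-gene standard errors was 0.04, and for 79 of the 81 genes with an intensity of at least 50 the 95% interval of the change lay within 25% in either direction. The other 2 were Rpl37, whose probe is dim, and Rps4l.

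The common reference genes show the scale of these changes. Rplp0, a protein of the ribosomal stalk, had intensities from 14101 to 15660 (median 14601) in control mice at the first hour and from 12609 to 15111 (median 14701) at the ninth. The 2 groups overlapped over most of their range, and the log2 fold change was -0.04 with an interval from -0.15 to 0.06. Rpl13a, of the large subunit, ranged from 23349 to 28052 (median 25541) at the first and from 24426 to 27839 (median 26752) at the ninth hour. Its log2 fold change was 0.05 with an interval from -0.03 to 0.13. Rps6, the substrate of the S6 kinases, ranged from 17298 to 18985 (median 18234) at the first and from 18043 to 18868 (median 18511) at the ninth hour. Those groups overlapped too, and the log2 fold change was 0.03 with an interval from -0.08 to 0.15.

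The smallest adjusted p over the family in that comparison was 0.40, for Rpl28 of the large subunit, at a log2 fold change of 0.07. At an unadjusted p under 0.05 there were 4 genes from the first to the ninth hour, 7 from the first to the fifth and 3 from the fifth to the ninth. With no change a fraction of 0.05 of genes falls under that limit, and the shares of all probes given here are for the adjusted p. Over all probes 0.00530% passed from the first to the fifth hour and 0.0336% from the fifth to the ninth. From the first to the fifth hour 59 of the 84 genes had a value above 0 with a median of 0.023, and from the fifth to the ninth 33 had, with a median of -0.012. Without the 2 arrays named above the first of these medians was 0.0046, and within slides 1, 2 and 3 it was 0.021, -0.019 and 0.065. Limma on the control channel alone called 0 of the 84 genes in each of the 3 comparisons as well.

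In mice that drank corticosterone 0 of 84 genes passed the test from the first to the ninth hour, where 4.02% of all probes passed. The median log2 fold change was 0.0088 (-0.0026, 0.031 and 0.0035 within slides 1, 2 and 3), and the interval lay within 25% for 80 of 81 genes, Rps4l being the other. Rps4l, named after the small subunit gene Rps4x, ranged from 1229 to 1605 (median 1363) at the first hour and from 1197 to 2199 (median 1767) at the ninth in these mice, and its change on the log2 scale was 0.29 ± 0.17 (SE) with an adjusted p of 0.43. The groups overlapped, and the control mice of the first hour spread wider still, from 1059 to 2917. The smallest adjusted p was 0.20, for Rps16 of the small subunit, at a log2 fold change of 0.08. From the first to the fifth hour 0 genes passed (0.548% of all probes), and from the fifth to the ninth 0 (0.666%). There were 3, 1 and 0 genes in the 3 comparisons at an unadjusted p under 0.05, where a fraction of 0.05 of genes falls with no change. On the corticosterone channel alone limma called 0 of 84 in each.

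**Figure D2:**
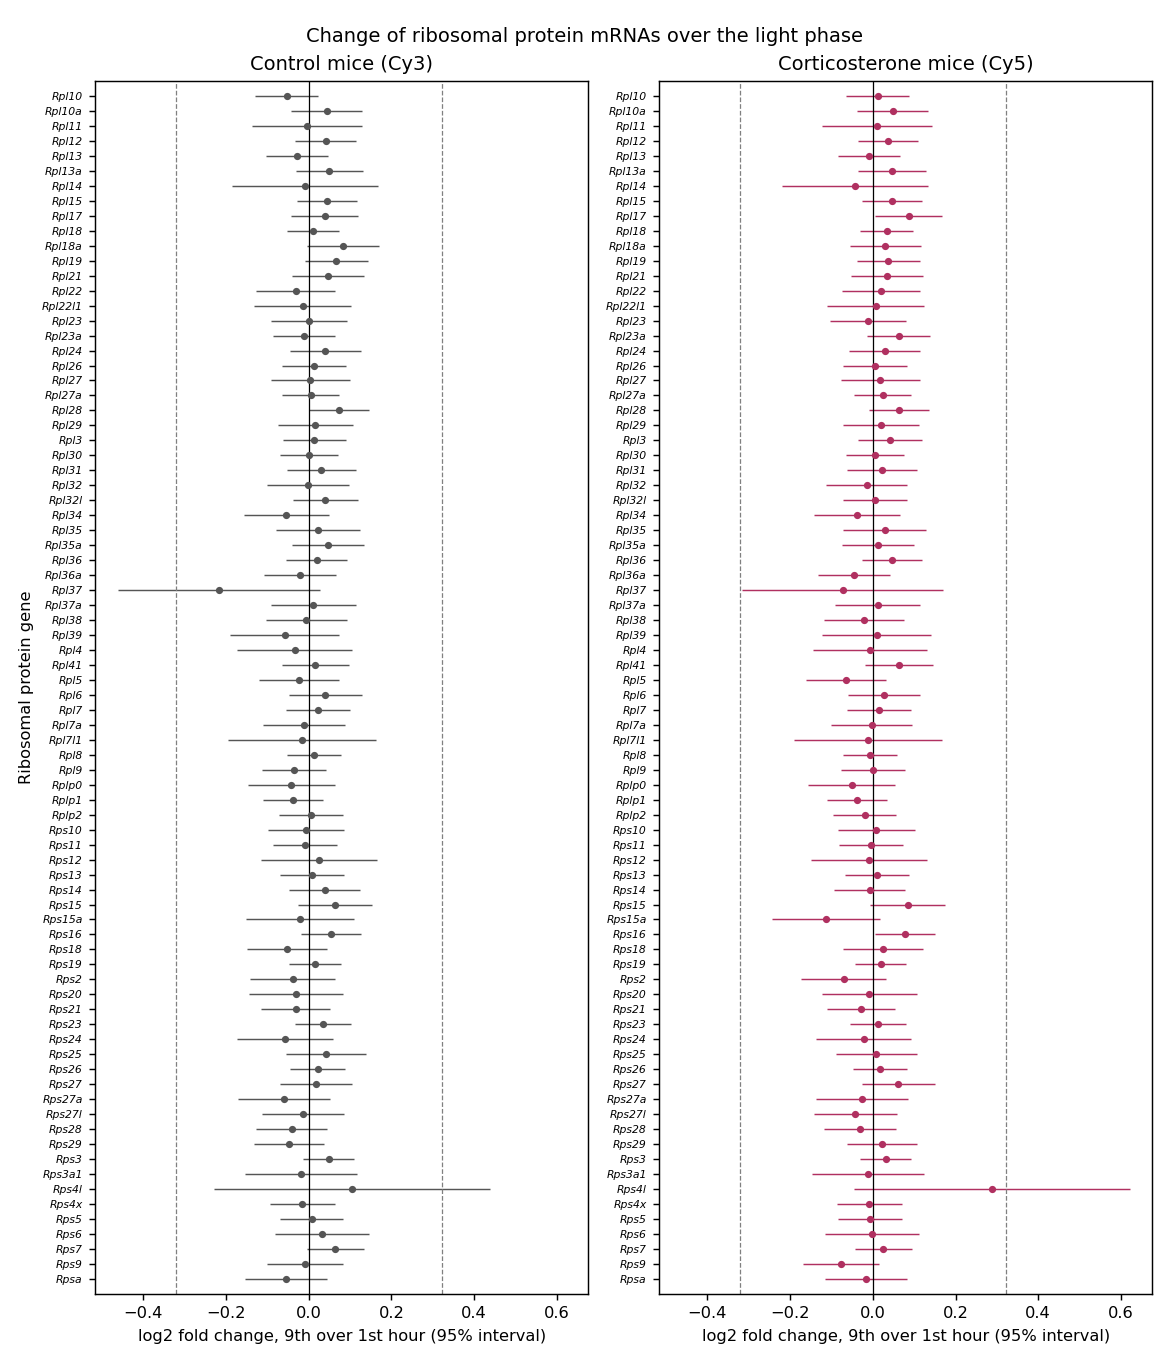
Points are the log2 fold change of 80 genes from the first to the ninth hour in control mice (left, Cy3) and corticosterone mice (right, Cy5), with 95% intervals, 8 mice at each hour. Dashed lines mark a change of 25%, and the intervals stay between them except for Rpl37 and Rps4l in control mice and Rps4l in corticosterone mice.

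Among the 147 family probes of intensity 50 or more, 1 passed a test between hours. It was the dimmest of 3 probes of Rps20 (mean intensity 483), chosen for mention after its values were seen, at a log2 fold change of 0.29 from the first to the ninth hour in corticosterone mice (adjusted p = 0.0016). The other Rps20 probes, at 43682 and 37248, gave -0.01 and -0.04. Over all 56605 probes 4.53% passed at least 1 of the 9 tests that involve hours.

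Whether the corticosterone ratio itself moved was asked by the change of the ratio between hours, which a constant dye difference does not touch. For these genes it moved in 0 of 84 cases from the first to the ninth hour, where 0.827% of all probes passed. The median was 0.0028 (-0.014, 0.036 and -0.034 within slides 1, 2 and 3), the smallest adjusted p was 0.76 for Rpl23a, and 79 of 81 intervals lay within 25%. From the first to the fifth hour 0 of 84 passed (0.0389% of all probes), and from the fifth to the ninth 0 of 84 (0.0830%). At an unadjusted p under 0.05, where a fraction of 0.05 of genes falls with no change, there were 0, 1 and 1 genes. Limma on the log ratios also called 0 in each of these comparisons. Ribosomal protein genes are bright, and among the 1087 probes of any gene at least as bright as 20169, the members included, 0.18% passed from the first to the ninth hour in control mice, 1.56% in corticosterone mice and 0.92% for the change of the ratio.

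At single hours the ratios of corticosterone over control differed from 0 for a share of the genes, mostly below 0 with quantile scaling between arrays. In the first hour 24 of 84 genes passed the test, 6 higher and 18 lower, where 17.5% of all probes passed (8.85% higher and 8.67% lower). In the fifth hour 33 passed, 5 higher and 28 lower, against 18.1% of all probes (8.62% and 9.47%). In the ninth hour 21 passed, 5 higher and 16 lower, against 14.0% (7.01% and 6.98%). Of the bright probes named above 36.2% passed in the fifth and 26.1% in the ninth hour, and 326 of 1087 in the first, so the family's shares of 28.6%, 39.3% and 25% lay near those of equally bright probes. The median log2 ratio of the 84 genes was -0.040, -0.055 and -0.030. It was below 0 within each slide at each hour, from -0.058 to -0.023 in the first, from -0.062 to -0.038 in the fifth and from -0.053 to -0.0043 in the ninth. With the slide as a block 23, 32 and 21 genes passed, and 17.4%, 18.0% and 13.9% of all probes. Without the 2 arrays that stood apart 36 (7 higher, 29 lower), 31 (4 and 27) and 25 (6 and 19) passed, and 10750, 8830 and 8817 of all 56605 probes. Without slide 1, 6 genes (7.14%) passed in the ninth hour, and the share of all probes was then 3.31%.

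The balance of higher and lower genes depended on how the arrays were scaled to each other. With Aquantile, which equalises between arrays the mean brightness of both dyes and leaves the ratios as they are, 17 genes were higher and 18 lower in the first hour, 13 and 22 in the fifth, and 16 and 18 in the ninth (19.3%, 18.0% and 14.4% of all probes passed at these hours). With loess only the splits were 15 and 9, 12 and 16, and 14 and 8 (18.9%, 17.4% and 13.4% of all probes). The log2 ratios of the authors gave 19 and 16, 14 and 19, and 17 and 13 (19.8%, 18.5% and 14.4% of all probes). They are nearly the loess ratios that Aquantile and loess only share, so for a ratio these are not separate alternatives. The signals processed by the scanner software gave 12 and 19, 4 and 28, and 5 and 18 (20.5%, 18.6% and 14.6% of all probes). More genes were thus higher than lower in the first and the ninth hour with loess only and in the ratios of the authors, while the median ratio of the family stayed below 0 in both, at -0.018 and -0.0071 with loess only and at -0.0099 and -0.0017 in the ratios of the authors.

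The genes with the lowest ratios were spread over both subunits. Rps21, a small protein of the 40S subunit, had intensities from 53703 to 61379 (median 56256) in control mice and from 45487 to 51978 (median 46766) in corticosterone mice at the first hour. The groups did not overlap there, and every array of the 24 had a ratio below 0. Its log2 ratio was -0.26 ± 0.04 (SE, adjusted p = 3.8e-08), then -0.29 and -0.26 at the later hours. In the fifth hour Rps21 ranged from 50784 to 58648 in controls and from 42285 to 48311 in treated mice, and in the ninth from 50628 to 59850 and from 45334 to 48174. The groups stayed apart at both. Rpl13, of the large subunit, ranged from 35028 to 39228 (median 36266) in controls and from 29474 to 32218 (median 30868) in treated mice of the first hour. Those groups did not overlap, and its log2 ratios were -0.24, -0.25 and -0.23 (adjusted p = 1.1e-08 at the first hour). Control and treated mice of Rpl13 were also apart in the fifth hour, from 32501 to 38233 against 27056 to 32024, and in the ninth, from 33427 to 37612 against 29300 to 31696.

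Rplp1, 1 of the acidic stalk proteins that bind elongation factors, ranged from 49186 to 55354 (median 53763) in controls and from 44318 to 48810 (median 46291) in treated mice, with ratios of -0.19, -0.23 and -0.19. The groups did not overlap. Its partner Rplp2 had ratios of -0.09, -0.18 and -0.12, all past the test, but its first-hour value was 0.12 under Aquantile or loess only and 0.13 in the log2 ratios of the authors. All of these hold nearly the same loess ratios, not scaled between arrays, and count as 1 alternative. Rpl3, which lies near the peptidyl transferase centre, gave -0.21, -0.19 and -0.18, below 0 on all 24 arrays. Rps15a gave -0.11 in the first hour, which did not pass the test (adjusted p = 0.14), and then -0.22 and -0.20, which did.

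Other genes had ratios above 0. Rps25, a small subunit protein used by some viral internal ribosome entry sites, ranged from 31782 to 41988 (median 37165) in controls and from 37491 to 45921 (median 41849) in treated mice of the first hour. These groups overlapped, while the ratio within each array was above 0 on all 24. Its log2 ratio was 0.16 ± 0.04 (SE, adjusted p = 0.0022), then 0.11 and 0.13. Rps15 gave 0.12, 0.14 and 0.14, Rpl29 0.12, 0.11 and 0.13, and Rps3, which lies at the mRNA entry site and also has roles in DNA repair, 0.08, 0.07 and 0.06, all past the test. Rpl4 gave 0.14 in the first hour (adjusted p = 0.078) and then 0.16 and 0.16, which passed. Rps3 levels in the first hour ranged from 21539 to 23351 (median 22797) in controls and from 23369 to 24807 (median 24052) in treated mice, which do not overlap. Rps6 passed in the first hour, at 0.12 (adjusted p = 0.049), and had 0.05 and 0.09 afterwards (adjusted p = 0.50 and 0.19). Rpl32l passed in the first hour at 0.10.

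**Figure D3:**
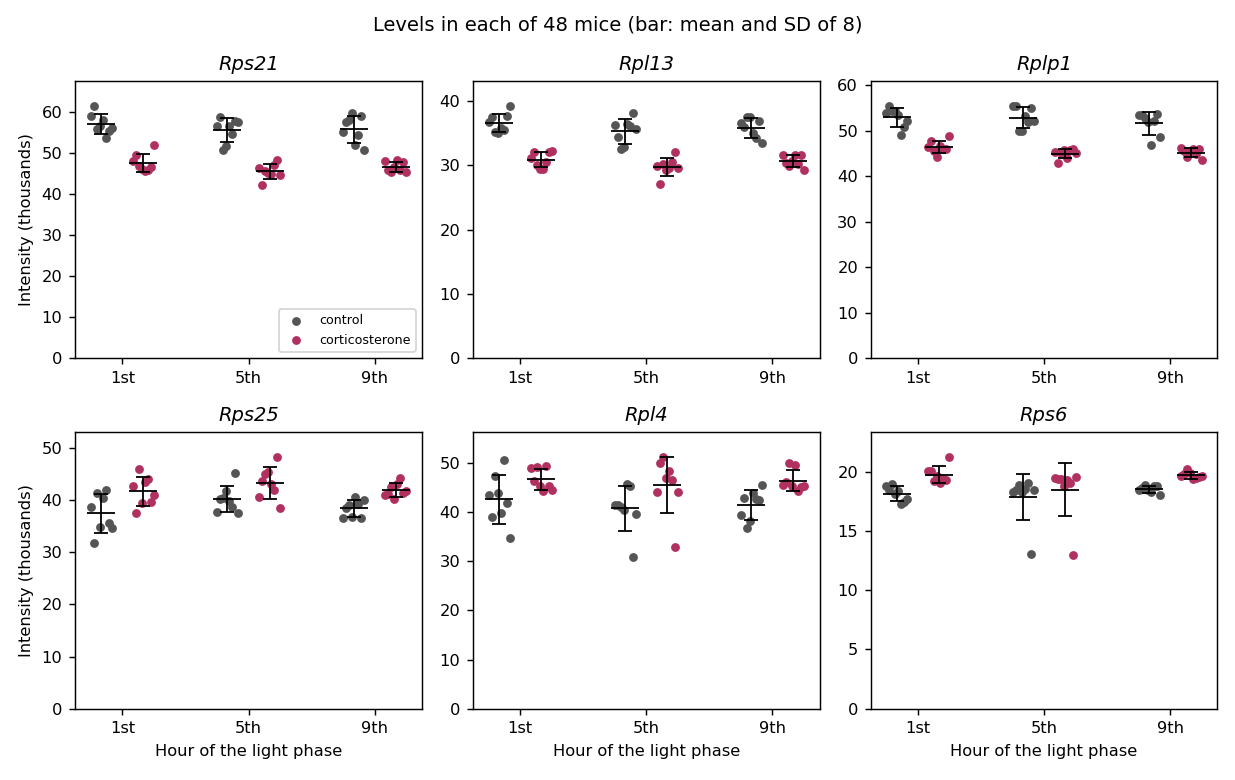
Each point is 1 mouse, grey for control (Cy3) and red for corticosterone (Cy5), 8 for each at hour 1, 5 and 9, with mean and SD. The intensity axis is linear and starts at 0. The mice of Rps21, Rpl13 and Rplp1 lie lower in the corticosterone groups, those of Rps25 and Rpl4 overlap, and the low points of Rpl4 and Rps6 at hour 5 are the 2 mice of 1 array.

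Other named genes had smaller or less even ratios. Rps18 gave -0.17 and -0.19 in the first and the fifth hour, which passed, and -0.10 in the ninth, which did not (adjusted p = 0.078). Rps27a, which is made as a fusion with ubiquitin, gave -0.14 and -0.17, which passed, and -0.11 (adjusted p = 0.084). Rplp0 passed only in the fifth hour, at -0.11 (adjusted p = 0.048). Rpl5 and Rpl11, which carry 5S rRNA and bind MDM2 when free, gave 0.09, 0.03 and 0.05, none past the test, and -0.08, -0.18 and -0.06, of which the fifth hour passed (adjusted p = 0.013). The control levels of Rps18 ranged from 52200 to 61379 in the first hour and the treated from 45848 to 53884, so that the groups overlapped. Rpsa, also known as the laminin receptor, gave -0.08, -0.09 and -0.04, and Rpl13a -0.01, -0.07 and -0.02, none past the test. Groups of mice that did not overlap were counted too. They made up 7 genes in the first hour (2 higher, where 1.58% of all probes did not overlap), 5 in the fifth (0 higher, 1.04%) and 7 in the ninth (2 higher, 1.65%). The shares among equally bright probes are not given here. When mice of the first hour were set against those of the ninth, no gene had groups apart among controls (0.329% of all probes) or among corticosterone mice (1.06%).

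The ratios repeated from hour to hour, in different mice but on the same probes with the same dyes. Past the test at all 3 hours in 1 direction were 18 genes, 4 higher and 14 lower, and 5.92% of all probes were. The share among equally bright probes, which passed more often than all probes at single hours, is not given here. The counts of 18, 4 and 14 genes hold for quantile scaling and the brightest probe. The 14 include Rplp2, whose first-hour ratio was above 0 where ratios were not scaled between arrays. The 4 include Rpl29, which was below 0 in the fifth and the ninth hour when averaged over its probes. Of the 81 genes, 45 were below 0 and 20 above 0 at all 3 hours, and none passed in opposite directions. Across the 81 genes the ratios of the first hour correlated with those of the fifth at r = 0.86 and with those of the ninth at r = 0.90, which is a description across genes that share probes, dyes and normalization. The 18 genes moved by at most 0.09 on the log2 scale between any pair of hours. Of the 52 large subunit genes 13, 19 and 12 passed in the 3 hours, and of the 32 small subunit genes 11, 14 and 9. Of all probes 17.5%, 18.1% and 14.0% passed, and of the 1087 bright probes 30.0%, 36.2% and 26.1%.

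**Figure D4:**
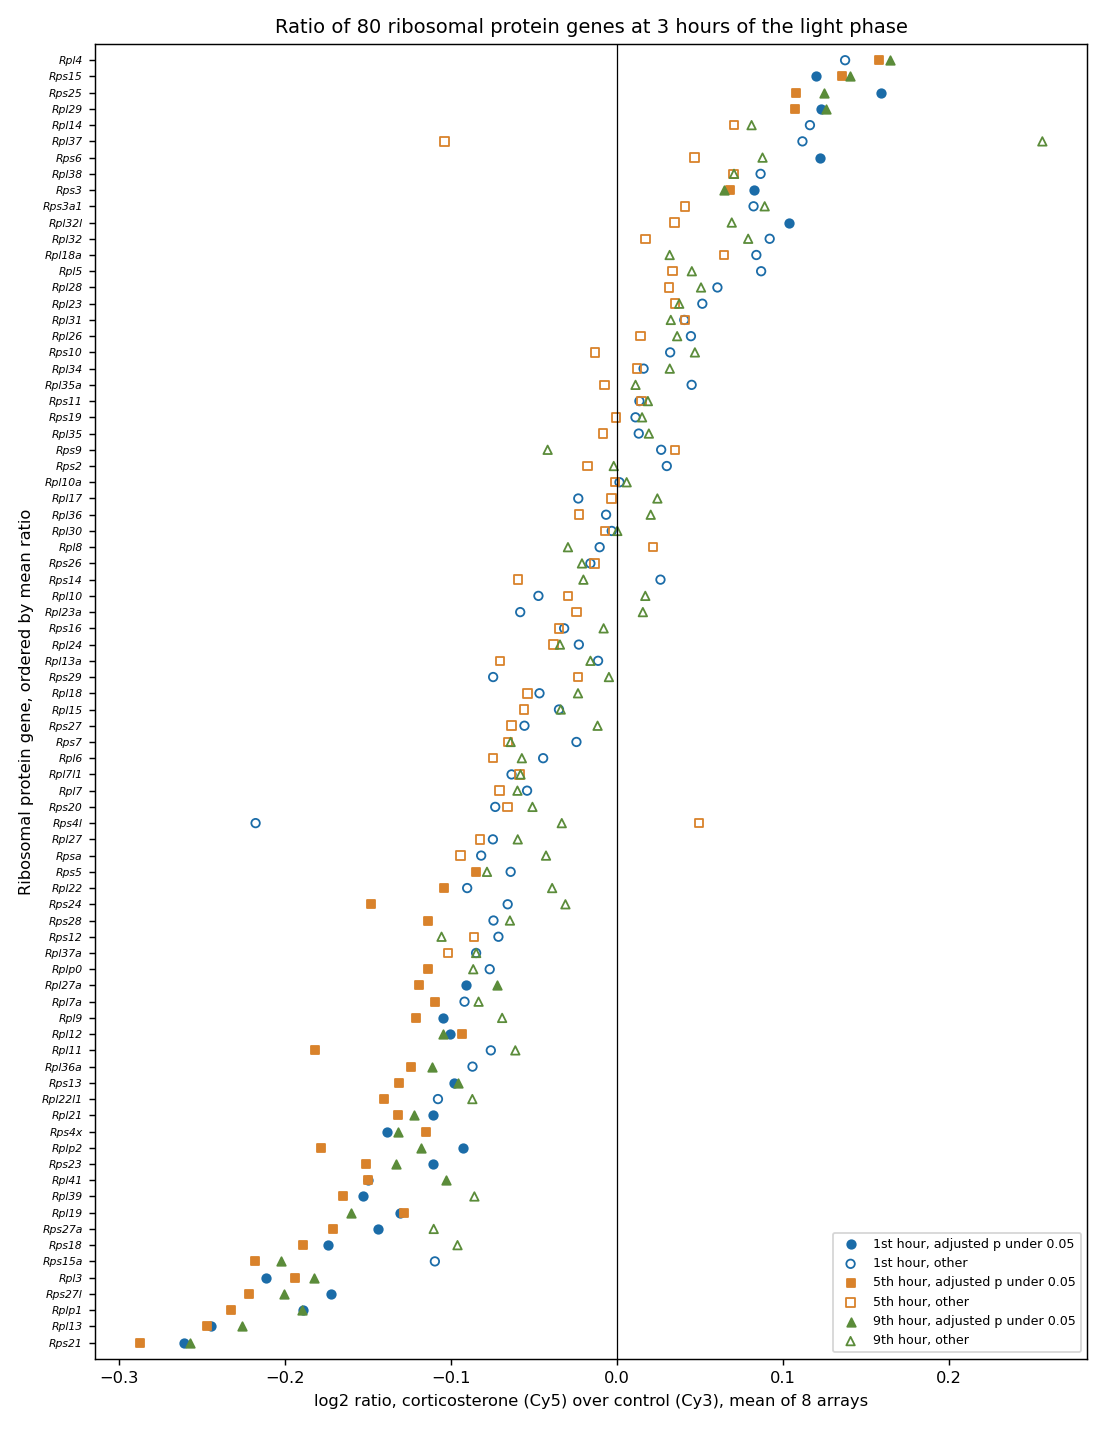
Log2 ratio of corticosterone over control for 80 genes ordered by their mean, at hour 1 (circles), 5 (squares) and 9 (triangles), each the mean of 8 arrays. Filled symbols passed the test. Rps21 has the lowest mean and Rpl4 the highest, and the 3 symbols of a gene lie farthest apart for the dim Rpl37 and for Rps4l.

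Probes of the same gene did not always give the same ratio. Of 45 genes with 2 or more probes of intensity 50 or more, 11 had probes with opposite signs, each held at all 3 hours. The Rpl29 probe described above gave 0.12 in the first hour, while the other Rpl29 probes gave -0.02 and -0.10. Rpl41 gave -0.15 on 1 probe and 0.09 on another, and Rps4x -0.14 and 0.05. The second probe of Rps6 gave -0.02, and the second of Rpl13, nearly as bright, gave -0.06 where the first gave -0.24. Averaged over its probes, Rpl29 gave -0.028 in the fifth and -0.019 in the ninth hour, neither past the test. Both probes of Rplp1 gave nearly the same ratio, -0.19 and -0.20, and passed at all 3 hours. All 5 probes of Rpl39 were below 0, from -0.07 to -0.19 in the first hour. Of the 14 genes with several probes and at least 1 that passed at all 3 hours, 2 passed there with every probe.

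**Figure D5:**
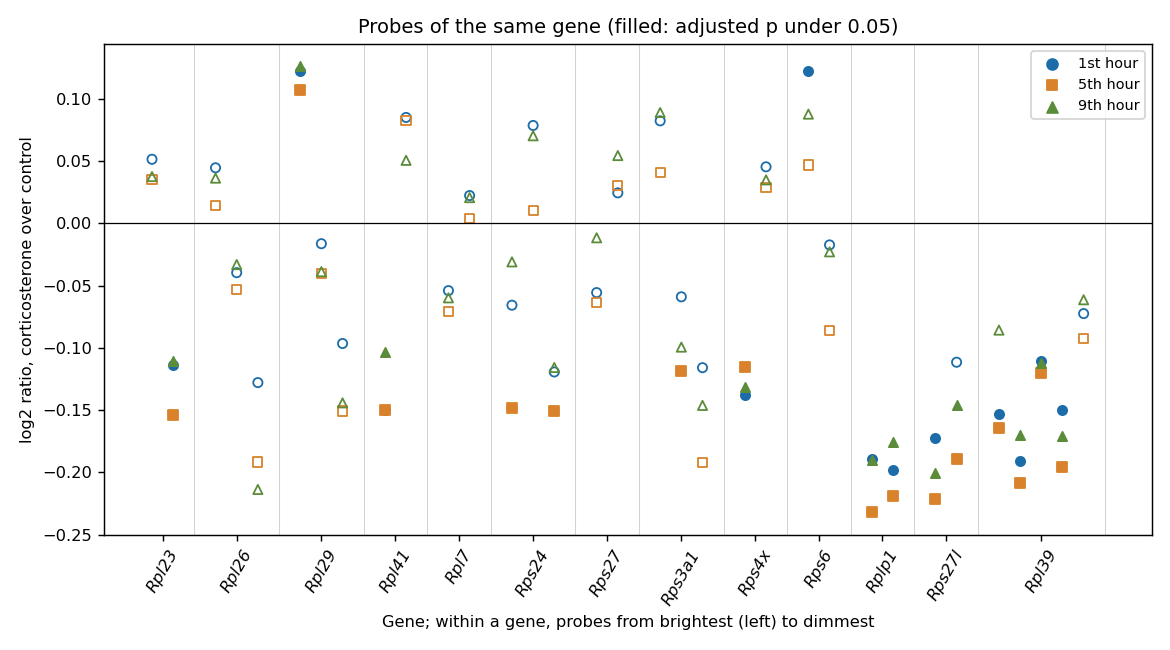
Log2 ratio of corticosterone over control for every probe of intensity 50 or more of 10 genes whose probes have opposite signs, and of Rplp1, Rps27l and Rpl39 for comparison. Symbols are the 3 hours and filled symbols passed the test. Rpl29 spans 0.12 to -0.10 in the first hour, whereas the probes of Rplp1 lie together.

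Copies with an l in the name were compared with the genes they are named for, each by its own ratio. Rps27l, a target of p53, ranged from 2568 to 3101 (median 2789) in controls and from 2305 to 2780 (median 2475) in treated mice of the first hour, which overlap. It passed at all 3 hours with ratios of -0.17, -0.22 and -0.20, and its second probe gave -0.11, -0.19 and -0.15. Rps27 gave -0.06, -0.06 and -0.01, with none past the test. Rpl22l1 passed in the fifth hour (-0.14), as did Rpl22 (-0.10). Rpl32l gave 0.10, 0.03 and 0.07 and Rpl32 0.09, 0.02 and 0.08, and of these only the first passed. Rpl7l1 gave -0.06 at each hour and Rpl7 -0.05, -0.07 and -0.06, with none past the test. Rpl10l and Rpl3l, known from testis and muscle, were well above background in 0 of 24 Cy3 channels and in 5 and 7 of 24 Cy5 channels, and Rpl39l in 5 and 9. None of these 3 passed a test. Rpl10 gave -0.05, -0.03 and 0.02.

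The median ratio of the 84 genes on an array was below 0 on 7 of 8 arrays in the first hour (from -0.07 to 0.08), on 6 of 8 in the fifth (from -0.09 to 0.02) and on 6 of 8 in the ninth (from -0.08 to 0.02). About their group means the genes had a median SD of 0.08 in control and 0.07 in corticosterone mice, and 1006 other bright probes had 0.11 and 0.09. The median correlation between pairs of the 81 genes over mice was 0.16 in control and 0.17 in corticosterone mice, and 0.10 in each without the 2 arrays named above, and over 24 mice a dye this is a weak value. For the other bright probes it was -0.01 in each. Among genes of intensity 50 or more Rps4l varied most, with an SD of 0.36 in controls.

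Lists of other genes of the ribosome and its regulation were followed by the same test. Counts of these lists and of the cell type markers are to be read against the 17.5%, 18.1% and 14.0% of all probes that passed in the first, the fifth and the ninth hour. Bright probes passed more often than all probes, and no share at the brightness of each list is given here. Of 4 ribosomal components outside the naming rule, Fau, the precursor of RPS30, gave -0.17, -0.22 and -0.19 and passed at all 3 hours. Rack1, a scaffold on the small subunit, passed in the ninth hour at 0.11. Rpl36al passed in none. Of 17 other TOP mRNAs, 2 were higher and 4 lower in the first hour, 2 and 4 in the fifth, and 1 and 2 in the ninth (3 of 17, where 14.0% of all probes passed), with medians of -0.03, -0.07 and -0.02. Tpt1, a translationally controlled tumour protein, gave -0.24, -0.26 and -0.25, and Nap1l1, a histone chaperone, -0.24, -0.27 and -0.18. Eif3h, a subunit of initiation factor 3, gave 0.08, 0.08 and 0.11. None of the 17 passed a test between hours or of the change of the ratio.

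Of 78 mitochondrial ribosomal protein genes 8 were higher and 14 lower in the first hour, 9 and 17 in the fifth, and 8 and 10 in the ninth (against 17.5%, 18.1% and 14.0% of all probes), with medians of -0.03, -0.06 and -0.02. Mrpl52 gave -0.19, -0.26 and -0.15, and Mrpl27 gave 0.19, 0.20 and 0.22. Between hours only Mrps18b passed, at 0.23 from the first to the ninth hour in corticosterone mice, where 4.02% of all probes passed. Of 30 ribosome biogenesis genes 1 was higher and 5 lower in the first hour, 0 and 5 in the fifth, and 0 and 2 in the ninth, shares near or below those of all probes. Among them Ncl, which encodes nucleolin, gave -0.23, -0.17 and -0.22 and Nop58, a snoRNP protein, -0.11, -0.16 and -0.16. Fbl, the rRNA methyltransferase fibrillarin, rose by 0.18 ± 0.05 (SE, adjusted p = 0.017) from the first to the ninth hour in corticosterone mice and had 0.17 in control mice (adjusted p = 0.087). The median of the 30 genes over that span was 0.063 in control and 0.061 in corticosterone mice. Of 13 rRNA transcription genes measured, 2 were higher and 1 lower in both the first and the fifth hour. In the ninth 1 was higher and 0 lower, and the medians were -0.014, -0.026 and -0.043. Among them Ubtf, which opens rDNA to polymerase I, gave 0.42, 0.54 and 0.42, and Ttf1 fell by 0.27 from the first to the ninth hour in corticosterone mice.

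The regulators of TOP translation held the only genes of these pathway lists whose ratio moved between hours. Ddit4, an inhibitor of mTOR complex 1 also known as REDD1, had a ratio of 0.58 ± 0.07 (SE, adjusted p = 2.0e-09) in the first hour, 0.11 in the fifth and -0.12 in the ninth, of which only the first passed. Its ratio in the ninth hour less that in the first was -0.69 (adjusted p = 6.5e-07). In corticosterone mice Ddit4 fell by 0.81 between those hours, and in control mice it had -0.12 (adjusted p = 0.63). Ddit4l, its paralogue, went from -0.33 in the first to 0.31 in the ninth hour, a change of 0.64 (adjusted p = 0.014). Rps6ka1, an S6 kinase of the RSK family, gave -0.33 and -0.22 in the first and the fifth hour, which passed, and rose by 0.31 from the first to the ninth hour in corticosterone mice (adjusted p = 0.0017). Rheb, the activator of mTOR complex 1, gave -0.18, -0.14 and -0.12, all past the test. Of the 22 genes, 4 passed in the first hour, 5 in the fifth and 2 in the ninth, where 17.5%, 18.1% and 14.0% of all probes passed.

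Markers of several cell types also had ratios past the test at single hours. The summed level of 6 oligodendrocyte markers ranged from 61637 to 77254 in control and from 57182 to 76203 in corticosterone mice of the first hour, with 2 of the 6 higher and 2 lower. In the fifth hour it ranged from 56274 to 79828 and from 53796 to 69114, and in the ninth from 58943 to 80668 and from 50308 to 70414, with the same counts. The median sum was lower in corticosterone mice at each hour, at 59631 against 66998, 56798 against 69392 and 57206 against 69454, and the median log2 ratio of the 6 was -0.05, -0.15 and -0.08. The sum over 6 astrocyte markers ranged from 81303 to 105038 in control and from 95434 to 107589 in corticosterone mice of the first hour, with 1 higher and 1 lower. Most of this sum is the probe of Aldoc, with a mean intensity of 72568, and the median log2 ratio of the 6 was 0.01. The sum over 6 endothelial markers ranged there from 16690 to 20856 and from 15438 to 17159, with 2 higher and 3 lower and a median log2 ratio of -0.12. The ratio of 2 of these 6, Cldn5 and Ly6c1, changed between hours 1 and 9, by 0.60 and -0.43, where 0.827% of all probes passed. In that first hour 0 of 6 microglial markers were higher and 3 lower (median -0.10), and of the 12 neuronal markers 1 was higher and 0 lower (median 0.06), and 17.5% of all probes passed. The part of these in the ratios of the ribosomal protein genes was not tested. Of 7 choroid plexus markers, Kcne2 was not well above background in any Cy3 channel, and the highest sum of the list in any mouse was 2976.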

How the data were processed

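Hippocampal RNA was hybridised to 2-colour Agilent arrays (8 × 60K) on 3 slides. The deposited files hold the scanner intensities that the authors extracted with Feature Extraction 10.7.3.1, and a table of log2 ratios deposited by the authors, used as an alternative. Within a median of 0.0012 those log2 ratios equalled loess-normalized values with an offset of 50. In R 4.3.3 with limma 3.58.1 the intensities were background-corrected (normexp, offset 50 for p-values and 0 for fold changes), normalized by loess within and quantiles between arrays, and fitted by channel with the 2 dyes of a spot correlated (0.28). Of 62976 spots, 3671 controls were left out, 255 to 506 outlier spots per array were not used, and values missing on some array (77 probes, none of these genes) were filled with the mean of the same hour. P-values were adjusted by Benjamini-Hochberg over 56605 probes, with 0.05 as threshold. Intensities here are on the fold change scale, after normalization.

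The members, the gene lists and the tests were chosen with earlier results of these data known. Named were, in each of 6 main comparisons, up to 5 genes per direction with the largest change among those past the test and with an intensity of at least 50, a set of common reference and stalk genes, the genes with an l in the name with their parents, and up to 3 genes of each pathway list. Nothing in the labels says that mice other than those of 1 array were paired. P-values reflect the spread between mice within groups of 8. For each probe 1 estimate of that spread was shared by all hours and both dyes, so mice of other hours enter each test. The number of arrays limits precision. Alternatives covered background, normalization, probes, test, slides and the 2 arrays that stood apart. The fit was tested on simulated data. Some items are not reported here, in the text or the figures. Promoter sequences are RefSeq's, GRCm38.p6. The array headers name mm9, so no coordinate of a probe is given.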

Additional observations from a re-analysis of the deposited data

Results flagged for a closer look

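In 207 groups of samples looked at, 22 had a highest or lowest sample far from the others, where chance gives about 1 in 20. On the seventh array of the fifth hour, in control then corticosterone mice, Rps6 was at 13008 and 12931 (others from 18248 and 18802 upward), Rpl4 at 30869 and 32911, Rplp2 at 87040 and 72753, and Rpl32l at 25280 and 26754. On it Rpl5 was at 17817 in the control mouse and Rpl32 at 46933 in the corticosterone mouse. On the eighth array of the first hour the corticosterone mouse had Rpl22 at 6333 and Rpl22l1 at 19828, and the median log2 ratio of the 84 genes there was 0.076 (others from -0.071 to -0.006). Further single samples were Rps27a at 58845 and Rps3 at 21539 in control mice of the first hour, Rpl39l at 4.35 and Rpl7 at 18697 in control mice of the ninth, Rpl10l at 16.2 and Rpl7 at 19194 in a corticosterone mouse of the first, Rpl39 at 28156 in one of the fifth, and Rpl29 at 54251 and Rps27l at 2656 in corticosterone mice of the ninth.

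By the test of the change of the corticosterone ratio, hour 9 differed from hour 1 for Ddit4 (-0.69) and Ddit4l (0.64) of the pathway lists, for the endothelial markers Cldn5 (0.60) and Ly6c1 (-0.43), and for none of the 84 ribosomal protein genes. Of all probes 0.827% differed by that test.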

How the results depend on the processing

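Under all alternatives 0 of 84 genes passed in each comparison between hours and in each change of the ratio. The control and the treated mouse of an array are paired in the test on log ratios, by which 26, 31 and 19 genes passed at single hours (10283, 10510 and 7823 of all 56605 probes). No paired analysis was possible between hours, because the mice were different animals and replicate numbers only name the arrays. At single hours the number of genes past the test depended on which arrays entered. Without slide 1 it was 14, 17 and 6 in the first, the fifth and the ninth hour (6585, 6055 and 1871 of all 56605 probes, against 9918, 10243 and 7917 with all slides), without slide 2 it was 9 in the first (4559 of all probes), and without slide 3 it was 11 in the fifth (4136 of all probes). With Aquantile 34 passed in the ninth hour (8140 of all probes). Without both arrays that stood apart 36, 31 and 25 passed (10750, 8830 and 8817 of all probes), an alternative chosen after seeing the data. The median ratio in the fifth hour was -0.0077 in the log2 ratios of the authors. With no normalization between arrays the median change from the fifth to the ninth hour was 0.040 in control and 0.056 in corticosterone mice. Within slide 3 alone the median difference of control mice was 0.036 between hours 1 and 9 and 0.065 between hours 1 and 5 (within slide 2, -0.019), and the median change of the ratio between hours 1 and 5 was -0.062 (within slide 2, 0.028). Slides hold 2 to 4 arrays of an hour, and the cause was not tested. For 2 genes the direction turned. Rpl29 averaged over its probes gave -0.028 in the fifth and -0.019 in the ninth hour. Rplp2 in the first hour gave 0.12 with no normalization between arrays and with Aquantile, and 0.13 in the log2 ratios of the authors. For a ratio these are nearly 1 alternative, the loess ratios not scaled between arrays. Of the other values of named genes 1349 kept direction and side, 82 no longer passed, 30 newly passed and 2 moved by more than the spread between mice.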
